A study of Rattus norvegicus with 8 samples.

Results

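The nuclear-encoded subunits of oxidative phosphorylation were measured in heads of rat embryos at E12.5, in mid-gestation. They were taken as all probe sets of the rat U34A array whose single gene symbol begins with Nduf, Sdha to Sdhd, Uqcr, Cox4 to Cox8 or Atp5. The rule found 101 probe sets for 55 genes, out of 8799 probe sets on the array and 4737 genes with an unambiguous symbol. Complex I was represented by 40 probe sets for 24 genes, complex II by 1 probe set for Sdha, complex III by 6 for 3 genes, complex IV by 30 for 13 genes and complex V, the ATP synthase, by 17 for 10 genes. The other 7 belonged to the assembly factors Ndufaf3 and Sdhaf2, to Cox7a2l and to the pseudogene Cox6c-ps1. Ndufa4 and its relative Ndufa4l2 were counted with complex IV, where the Ndufa4 protein is found. A further 6 probe sets that named several genes, among them the only ones for Atp5mc1, Atp5mc2 and Cox7a2, were left out.

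The embryos were either wild-type or homozygous for Pax6, as the labels put it, without naming the allele. Pax6, a transcription factor, is needed to form eyes, nose and cerebral cortex, and the aim was to look for its downstream targets. The forebrain sample also contained the midbrain and the beginnings of the eye and nose, and the hindbrain sample, cut between isthmus and forelimb, also contained the pharyngeal arches. The 4 groups were therefore wild-type forebrain, Pax6 homozygous forebrain, wild-type hindbrain and Pax6 homozygous hindbrain, each with 2 arrays labelled 1st and 2nd, 8 in all. The labels give neither the number of embryos behind an array nor whether a group's arrays stand for different litters, so the tests measure no more than the spread between arrays, which may be technical.

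Oxidative phosphorylation transfers electrons from NADH through complexes I, III and IV, or from succinate through complexes II, III and IV, to oxygen. Complexes I, III and IV pump protons across the inner mitochondrial membrane, and complex V uses the gradient to make ATP. Core subunits carry the redox centres or the catalytic sites, while accessory subunits stabilise each complex. Some subunits of complex IV have tissue isoforms, such as Cox6a2 and Cox8b of heart and skeletal muscle. The mitochondrial DNA encodes further core subunits, which the name rule does not include.

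NRF1 is a transcription factor known for binding a GC-rich sequence upstream of many respiratory genes, and for this reason the promoters of 3 subunits that recur in the comparisons and hold its core are shown. The sequences are RefSeq's for the assembly GRCr8 and cover the 250 bases before the annotated start in the gene's own direction, with every match in capitals; the letters searched were GCGCA, any base and GCGC, on both strands. Sdha lies on the + strand (chr1:30764303-30764552), Ndufv3 on the + strand (chr20:9613536-9613785) and Atp5po on the - strand (chr11:44657484-44657733).
Sdha: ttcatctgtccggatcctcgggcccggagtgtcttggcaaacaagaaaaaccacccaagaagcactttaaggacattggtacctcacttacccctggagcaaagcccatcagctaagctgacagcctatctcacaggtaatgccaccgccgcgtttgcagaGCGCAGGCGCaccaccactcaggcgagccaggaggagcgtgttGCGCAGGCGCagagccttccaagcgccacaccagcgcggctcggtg
Ndufv3: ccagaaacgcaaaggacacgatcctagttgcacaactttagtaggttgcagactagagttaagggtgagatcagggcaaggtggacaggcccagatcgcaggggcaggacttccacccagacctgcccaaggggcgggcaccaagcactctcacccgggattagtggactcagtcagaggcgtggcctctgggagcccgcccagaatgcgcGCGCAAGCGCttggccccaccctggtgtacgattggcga
Atp5po: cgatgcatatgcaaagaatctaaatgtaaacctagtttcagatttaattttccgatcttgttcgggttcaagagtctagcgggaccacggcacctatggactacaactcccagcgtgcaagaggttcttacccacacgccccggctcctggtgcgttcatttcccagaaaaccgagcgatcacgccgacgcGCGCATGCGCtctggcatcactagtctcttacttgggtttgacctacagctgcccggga
Sdha, the flavoprotein of complex II, has 2 matches, and Ndufv3 and Atp5po, subunits of complex I and of the peripheral stalk of complex V, have 1 each. This sequence of 10 letters occurred in the windows of 5 of the 47 subunit genes with a promoter in the table (10.6%: Atp5po, Ndufa5, Ndufs6, Ndufv3 and Sdha) and in 3.75% of all 33469 windows of this length. The sequence CCGGAAGT, bound by ETS factors such as GABP and with no overlap with the NRF1 core, occurred in 4 of 47 (8.51%: Atp5f1a, Cox5b, Cox8a and Ndufs1) and in 3.10% of all windows. The 3 genes printed above did not share a direction between genotypes: the values of Sdha were higher, and those of Ndufv3 and Atp5po lower, in Pax6 homozygous embryos, with none past the test.

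The deposited intensities are linear and in arbitrary units, with 18.3% to 22.3% of the values of each array below 0. A noise level was set for each array as the size of its 5th percentile, which lay between 243 and 620. Regional transcripts separated the dissections. Lhx2, a forebrain and eye regulator, read 7768 to 8692 in forebrain and 1444 to 1801 in hindbrain, and Hoxa5, a Hox gene of the caudal hindbrain and spinal cord, read 1955 to 2723 in hindbrain and was within noise in forebrain. The probe set for Pax6 read 636 to 1243 in forebrain and 531 to 1194 in hindbrain, with the genotypes overlapping in forebrain and the Pax6 homozygous arrays higher in hindbrain. Since no allele is named and the position of the probes is not given, this does not check the genotype labels. Summed over markers, heart and skeletal muscle genes read 23902 to 30809 in forebrain and 57158 to 65050 in hindbrain, with the higher sums in hindbrain. The members of this list differed: Actc1 was within noise in forebrain and read 13746 to 17000 in hindbrain. Atp2a2 (rc_AA957510_s_at) read 9742 to 11008 in forebrain and 10642 to 12060 in hindbrain, so the forebrain sum is not a measure of muscle alone. In these bulk samples fewer cells of a type and less RNA per cell cannot be told apart.

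Most subunits were well measured. On all 8 arrays, 82 of the 101 probe sets (81.2%) exceeded the noise level, compared with 42.8% of all probe sets. Every probe set of complex III and the single one of complex II did so, as did 34 of 40 in complex I, 19 of 30 in complex IV and 16 of 17 in complex V. Only 9 probe sets (8.91%, against 34.3% of all) exceeded noise on no array: 6 of complex IV, 2 of complex I and the pseudogene Cox6c-ps1. The subunits together made up 3.68% to 4.84% of the summed positive signal of an array. A probe set entered the test if it exceeded 255 on at least 2 arrays, which 92 of the 101 did, covering all 55 genes. Some of the 92 may have passed this filter only through the group in which they are high.

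Isoforms of complex IV were read either above noise on every array or at or near noise, with the probe sets of Cox6a2 split. Cox4i1, the form of subunit 4 found in all tissues, exceeded noise on every array with each of its 3 probe sets. Cox4i2, the form known from lung and induced by low oxygen, did so as well, with 4263 and 3349 in wild-type forebrain, where Pax6 homozygous arrays gave 4138 and 1841, and with 4506 and 1769 in wild-type hindbrain and 3936 and 3445 in Pax6 homozygous hindbrain. Its 2 arrays differed most in wild-type hindbrain and the genotypes overlapped in both regions.

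**Figure D1:**
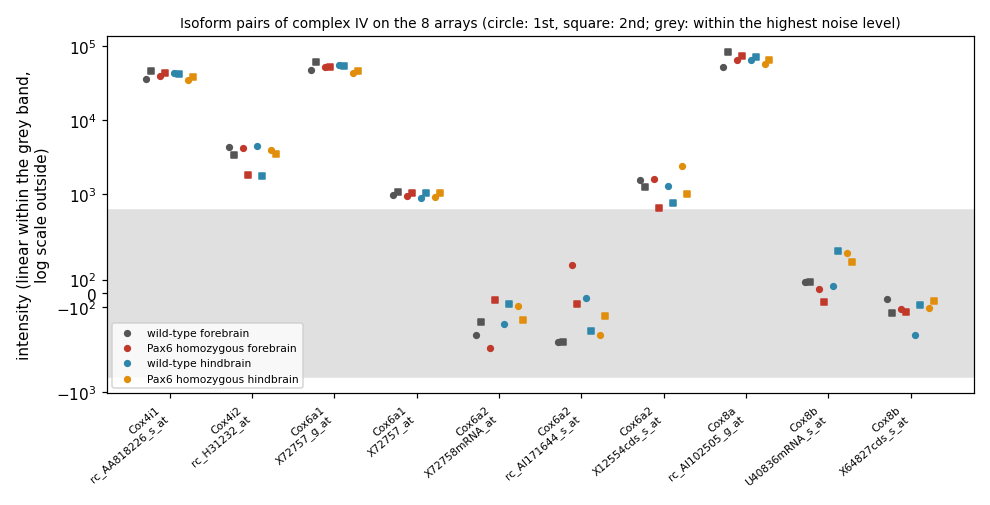
Intensity of probe sets for the paired isoforms of complex IV on the 8 arrays, by group (colour) and array label (circle 1st, square 2nd); the axis is linear within the grey band, which spans the highest noise level of any array (620) in both directions, and logarithmic outside it. Cox4i1, Cox6a1 and Cox8a lie above the band, as do Cox4i2 and 1 of the 3 probe sets for Cox6a2, while the other Cox6a2 probe sets and both for Cox8b lie within it; heights are not to be compared between probe sets.

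Cox6a1, the form of subunit 6a outside muscle, was above noise throughout with all 3 probe sets. Cox6a2, its form in heart and skeletal muscle, gave a split answer: 2 probe sets exceeded noise on no array, while X12554cds_s_at read 659 to 2368 and exceeded it on all 8. That probe set read 1312 and 760 in wild-type and 2368 and 1004 in Pax6 homozygous hindbrain, against 1536, 1260, 1583 and 659 in forebrain, so its values did not follow the muscle markers from forebrain to hindbrain. Cox8b, the muscle form of subunit 8, exceeded noise on 1 array at most, whereas the 4 probe sets of Cox8a, the general form, exceeded it everywhere. Cox6b1 was measured well with both probe sets. The 5 probe sets for Ndufa4l2, a relative of Ndufa4 induced by low oxygen, stayed within noise on at least 7 of the 8 arrays each. Cox5a, a subunit present in all tissues, was read at only 290 to 512 by its single unambiguous probe set.

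In hindbrain, 0 of the 92 tested probe sets differed between the genotypes after adjustment in limma (smallest Benjamini-Hochberg adjusted p = 0.989), where 0.017% of all 5881 tested probe sets passed. At an unadjusted p below 0.05, 6 subunits were called, or 6.52%, against 4.49% of all. All 6 had the lower values in Pax6 homozygous hindbrain, a direction in which 1.89% of all were called: Ndufa8, Ndufb10, Ndufv2, Ndufa9, Ndufs7 and Atp5pd. The median log2 difference between Pax6 homozygous and wild-type arrays was -0.13 over the subunits and 0.04 over all tested probe sets, and 64 of 92 subunit probe sets (69.6%) were below 0, against 45.5% of all. The size of this shift rested on single arrays. Without the 1st Pax6 homozygous hindbrain array the subunit median was -0.05, with 51 of 92 below 0, beside 0.01 over all tested. Without the 2nd wild-type hindbrain array it was -0.08, with 52 of 92 below 0, and the median of all tested was then -0.05.

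In the same region, the Pax6 homozygous arrays were both lower than either wild-type array for 31 of the 92 probe sets (33.7%), from 25 genes, where 14.5% of all tested probe sets did. All 31 exceeded noise on every array. Among the 3743 tested probe sets that did so, 15.9% lay entirely below, and 31 of the 82 subunits did (37.8%). The opposite order, both Pax6 homozygous arrays on top, was found for 9 subunit probe sets (9.78%) and 20.1% of all. The 31 comprised 13 of 37 tested in complex I, 2 of 6 in complex III, 8 of 24 in complex IV, 7 of 17 in complex V and Cox7a2l. The count moved with the scaling: after quantile normalization it was 24 (26.1%, against 16.3% of all) and after centring each array on its median 26 (28.3%, against 18.0%), both tried after the data had been seen.

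The lower values in hindbrain were led by accessory subunits of complex I. Ndufa8, an accessory subunit with twin cysteine motifs, read 12649 and 7495 in wild-type and 5105 and 5585 in Pax6 homozygous hindbrain, against 7072 and 10060 in wild-type and 7106 and 7684 in Pax6 homozygous forebrain. The hindbrain genotypes did not overlap, but the wild-type arrays stood further from each other than the lower of them stood from the Pax6 homozygous ones. The log2 difference in hindbrain was -0.87 ± 0.27 (SE, n = 2 arrays against 2; 95% interval -1.48 to -0.26; limma adjusted p = 0.989), and without the 1st wild-type array it was -0.49.

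Ndufa9 and Ndufv2 showed the same dependence on the 1st wild-type hindbrain array. Ndufa9, an accessory subunit near the ubiquinone site, read 14810 and 9500 in wild-type and 6082 and 8686 in Pax6 homozygous hindbrain (log2 difference -0.71 ± 0.27). Ndufv2, an iron-sulfur subunit of the NADH-oxidising module, read 23280 and 15086 against 10192 and 14600 (-0.62 ± 0.24). Leaving out that array brought these differences to -0.39 and -0.31, while in forebrain both genes had overlapping genotypes. Ndufv3, an accessory subunit of the same module, read 7366 and 5050 in wild-type hindbrain and 1828 and 5211 in Pax6 homozygous hindbrain, where a single Pax6 homozygous array was low and the groups overlapped. Its hindbrain difference of -0.98 was -0.23 without that 1st Pax6 homozygous array.

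Ndufb10, an accessory subunit of the membrane arm, had lower values in Pax6 homozygous tissue of both regions. It read 9693 and 7396 in wild-type and 6034 and 5289 in Pax6 homozygous hindbrain, and 8551 and 7033 in wild-type and 6609 and 6878 in Pax6 homozygous forebrain. All 4 Pax6 homozygous arrays lay below all 4 wild-type arrays, although 6878 and 7033 are close. The log2 difference was -0.58 ± 0.20 in hindbrain (95% interval -1.03 to -0.14; limma adjusted p = 0.989; -0.78 to -0.39 with 1 array left out) and -0.39 ± 0.14 over both regions (95% interval -0.71 to -0.08; limma adjusted p = 0.928).

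**Figure D2:**
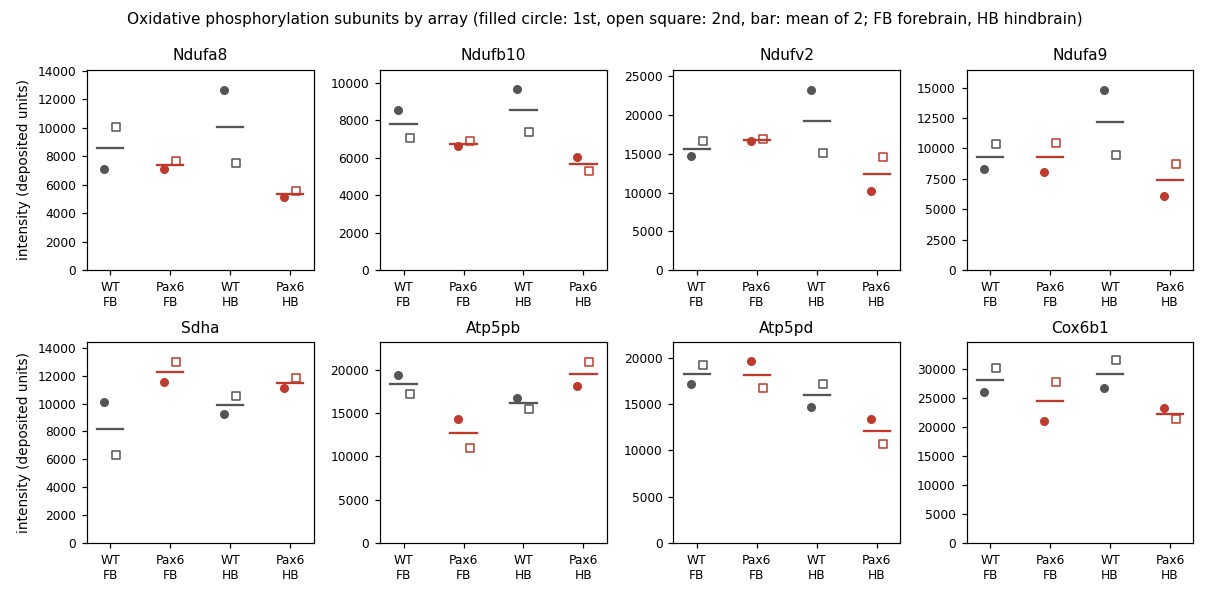
Intensity of 8 subunits on each array (filled circle 1st, open square 2nd) with the mean of the 2 arrays as a bar, by genotype (WT, wild-type; Pax6, Pax6 homozygous) and region (FB, forebrain; HB, hindbrain); each axis starts at 0. In hindbrain Ndufa8, Ndufb10, Ndufv2, Ndufa9, Atp5pd and Cox6b1 have both Pax6 homozygous arrays below both wild-type arrays, Sdha and Atp5pb have the opposite order, and the 1st wild-type hindbrain array stands high for Ndufa8, Ndufv2 and Ndufa9.

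Ndufs7 and Ndufs8 carry iron-sulfur clusters close to the ubiquinone site. Ndufs7 read 8091 and 7720 in wild-type and 5406 and 6590 in Pax6 homozygous hindbrain, a log2 difference of -0.41 ± 0.17 (95% interval -0.80 to -0.01; limma adjusted p = 0.989). The genotypes were apart there and overlapped in forebrain, where Ndufs7 read 7408 and 8183 in wild-type and 7728 and 6923 in Pax6 homozygous tissue. Of the 4 probe sets for Ndufs8, only rc_AA799479_g_at lay entirely lower in Pax6 homozygous hindbrain. Ndufs1, the largest iron-sulfur subunit, was read dimly and ran the other way, with 838 and 468 in wild-type and 961 and 856 in Pax6 homozygous hindbrain.

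Complex V had the largest share of log2 differences below 0 in hindbrain, with 15 of its 17 probe sets, for 10 genes, and a median of -0.19. Of these 17, 4 were for Atp5if1 and ranged from -0.55 to 1.89. Over all tested probe sets 45.5% were below 0. Below 0 were also 25 of 37 in complex I (median -0.12), 5 of 6 in complex III (-0.13) and 14 of 24 in complex IV (-0.04). These complexes were not tested against each other. In complex V, the F1 catalytic subunits Atp5f1a and Atp5f1b had log2 differences of -0.11 and -0.19, and the central stalk subunits Atp5f1c, Atp5f1d and Atp5f1e lay between -0.31 and -0.07. Atp5pd, the d subunit of the peripheral stalk, read 14687 and 17183 in wild-type and 13429 and 10672 in Pax6 homozygous hindbrain (-0.41 ± 0.17; limma adjusted p = 0.989), with the groups apart. Atp5pb, the b subunit of the same stalk, had the opposite sign.

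In complex IV, every probe set of Cox6b1 and Cox4i1 had a hindbrain difference below 0, with none past the test. The s_at probe set of Cox6b1, a subunit on the outer side of the membrane, read 26773 and 31475 in wild-type and 23188 and 21375 in Pax6 homozygous hindbrain, and 26082 and 30224 against 21059 and 27831 in forebrain, where the genotypes overlapped. Over both regions its log2 difference was -0.30 ± 0.12 (95% interval -0.57 to -0.02; limma adjusted p = 0.928). The other Cox6b1 probe set read 13067 and 21019 in wild-type and 14369 and 14718 in Pax6 homozygous hindbrain. There its genotypes overlapped, and over both regions it had -0.16 ± 0.18. The 3 probe sets of Cox4i1 had hindbrain differences of -0.33 to -0.10, with standard errors of 0.14 to 0.21, and those of Cox8a, 4 in number, -0.34 to -0.03. In hindbrain the genotypes overlapped for X54081mRNA_i_at of Cox4i1 and for M28255_s_at and rc_AI102505_at of Cox8a, and were apart for the other probe sets of these genes.

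The complex III probe sets under the name rule had small differences throughout. Cyc1, the cytochrome c1 of this complex, falls outside the rule and had a hindbrain difference of -0.40. Uqcrfs1, the Rieske iron-sulfur protein, read 25242 and 26504 in wild-type and 22046 and 23906 in Pax6 homozygous hindbrain with its brightest probe set, M24542cds_g_at. These values were apart, yet its log2 difference over both regions was only -0.09 ± 0.09, and its 3 probe sets had hindbrain differences between -0.17 and 0.04. For Uqcr11, a small subunit, the 2 probe sets had hindbrain differences of -0.26 and -0.11, and Uqcrc2, a core protein, had -0.10. In complex II, Sdha was higher, not lower, in Pax6 homozygous tissue of both regions.

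Markers of other cells also differed in sum between the hindbrain groups. The neuronal list summed to 172553 to 183201 in wild-type and 133300 to 135350 in Pax6 homozygous hindbrain, with 23 of 28 tested probe sets below 0 and a median log2 difference of -0.25. The 5 probe sets of that list at or below noise on all arrays belonged to Snap25, Nefh, Map2 and Syt1, and Gap43, Ina and Rtn1 were well above it. Red blood cell genes summed to 171472 to 182069 and 157813 to 158616, with 8 of 11 below 0, and mesenchymal genes to 184949 to 186954 and 159710 to 171738, with 19 of 26 below 0. Neural progenitor genes summed to 91485 to 109138 and 74066 to 80463, with 11 of 15 below 0, and only Fabp7 among them passed the test, lower in Pax6 homozygous hindbrain. The muscle list overlapped between genotypes, at 58767 to 63525 and 57158 to 65050. Their part in the lower subunit values was not tested.

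In forebrain, again, 0 of 92 subunit probe sets differed between genotypes after adjustment (smallest limma adjusted p = 1), where 0.017% of all tested passed. At an unadjusted p below 0.05, 3 were called (3.26%, against 2.92% of all): Atp5pb, Sdha and Ndufab1. The median log2 difference was -0.04 over the subunits and 0.01 over all. Below 0 were 58 of 92 (63.0%), against 48.5% of all. Of the 82 subunit probe sets above noise on every array, 9 (11%, against 10.4% of all such probe sets) lay entirely lower and 6 (7.32%, against 12.9%) entirely higher on the Pax6 homozygous arrays. Of the 92 in all, 6 (6.52%) were apart in the same order in both regions, against 7.52% of all: Ndufs1, Sdha and the dim Ndufab1 probe set higher, and Ndufb10, Ndufc1 and Atp5f1a lower. These shares apart from the 63.0% lay near or below those of all probe sets. The sign of the median rested on single arrays: it was -0.23 without the 1st wild-type array, 0.14 without the 2nd and 0.05 without the 1st Pax6 homozygous array. Red blood cell genes summed to 196698 to 209228 on the wild-type and 164537 to 165124 on the Pax6 homozygous forebrain arrays, with 10 of 11 probe sets below 0. Neural progenitor genes were also apart in sum in forebrain, at 80156 to 86896 on the wild-type and 73816 to 76163 on the Pax6 homozygous arrays. Of their 15 tested probe sets 9 were below 0 and 6 above, and 1 passed the test as lower. The neuronal and mesenchymal sums overlapped between the genotypes. The part of these lists in the subunit values was not tested.

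**Figure D3:**
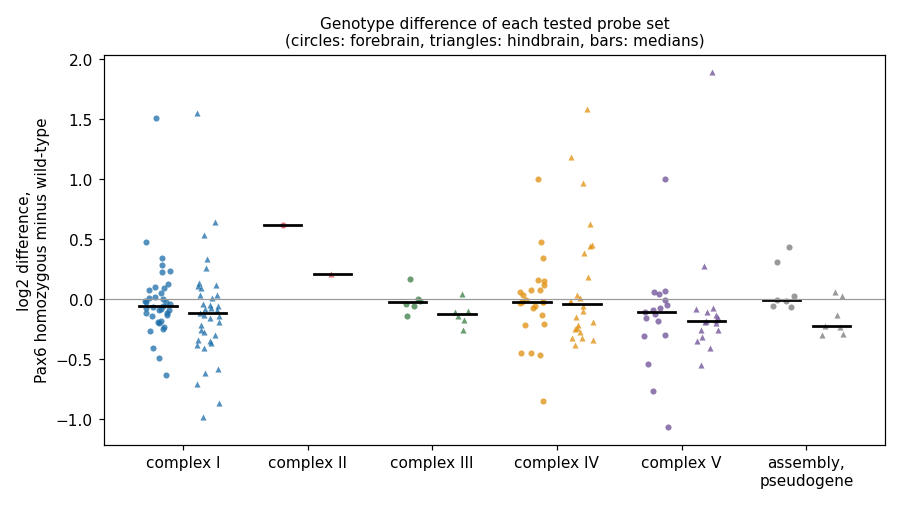
Log2 difference between the genotypes for each of the 92 tested probe sets, by complex, in forebrain (circles) and hindbrain (triangles), with the median of each set as a bar. The hindbrain medians of complexes I, III and V are -0.12, -0.13 and -0.19, that of complex IV is -0.04, and the single probe set of complex II, Sdha, is above 0 in both regions.

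Sdha read 10123 and 6289 in wild-type and 11559 and 12981 in Pax6 homozygous forebrain. In hindbrain it read 9266 and 10575 in wild-type and 11084 and 11829 in Pax6 homozygous tissue. All 4 Pax6 homozygous arrays lay above all 4 wild-type arrays, with the 2nd wild-type forebrain array lowest of all. The log2 difference was 0.62 ± 0.23 in forebrain (95% interval 0.11 to 1.13; limma adjusted p = 1) and 0.41 ± 0.16 over both regions (95% interval 0.05 to 0.78; limma adjusted p = 0.928), and in forebrain it was 0.28 without that array. Its only probe set leaves no second measure of the gene.

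Ndufab1, the mitochondrial acyl carrier protein that is also an accessory subunit of complex I, was named by a dim probe set. That probe set, rc_AA891651_at, read 337 and 115 in wild-type and 671 and 472 in Pax6 homozygous forebrain, and exceeded noise on 5 arrays. Its difference of 1.51 ± 0.63 (limma adjusted p = 1) depends on where low values are floored. The 2 brighter probe sets of the gene had forebrain differences of -0.02 and -0.08. Atp5pf, the F6 subunit of the peripheral stalk, read 11068 and 10720 in wild-type and 10080 and 4072 in Pax6 homozygous forebrain with X54510_g_at, so that its difference of -0.77 ± 0.36 rested on a single array and was -0.11 without it.

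Over both regions, 0 of 92 passed (smallest limma adjusted p = 0.928), where 0.034% of all tested did. At an unadjusted p below 0.05, 5 were called (5.43%, against 5.02% of all): Ndufb10, Ndufa8, Ndufv3 and Cox6b1 with lower values, and Sdha with higher ones, in Pax6 homozygous embryos. The median was -0.09 over the subunits and 0.03 over all, and 64 of 92 (69.6%) were below 0, against 45.7%. Without the 2nd wild-type forebrain array the medians were -0.01 and -0.02, with 51 of 92 below 0, so the subunits no longer lay lower than the rest. In the 4-against-4 comparison of arrays, Ndufb10 alone lay entirely lower (1.09% of subunits, 1.19% of all), and Sdha and the dim Ndufab1 probe set entirely higher (2.17%, against 2.38%). Ndufv3 had a difference of -0.81 ± 0.31, with 6292 and 8463 in wild-type and 4308 and 5115 in Pax6 homozygous forebrain beside the hindbrain values above. Its low hindbrain array of 1828 stood apart from the other 7, which began at 4308, and without it the difference was -0.43. Of the 33 values named by rule over the comparisons, 27 moved by over 1.5 times or changed sign when some single array was left out.

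For complexes IV and V the brightest probe sets differed little over both regions. Cox8a (rc_AI102505_g_at) had a log2 difference of -0.04 ± 0.14 and Atp5f1b, the catalytic beta subunit, -0.12 ± 0.10, with 95% intervals of -0.37 to 0.29 and -0.35 to 0.11. Ndufb8, the brightest of complex I, had -0.10 ± 0.11. The next members by p in complexes IV and V were Cox5b (D10952_i_at, 0.26 ± 0.17), whose other probe set had -0.16, Atp5po (D13127_g_at, -0.26 ± 0.12) and Atp5pf (-0.45 ± 0.25). Leaving out the 1st wild-type hindbrain array brought Cox5b to 0.10 and leaving out the 2nd to 0.43. The value of Atp5pf was -0.12 without the 2nd Pax6 homozygous forebrain array and -0.77 without the 1st. The median standard error of a subunit was 0.22 within a region and 0.16 over both regions, so differences of the size of the medians could not be resolved for single genes with 2 arrays a group.

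Whether the genotype difference itself differed between the regions was tested as an interaction, forebrain minus hindbrain. In this test 0 of 92 passed (smallest limma adjusted p = 0.9995), as did 0% of all tested probe sets. At an unadjusted p below 0.05, 1 subunit (1.09%) and 1.9% of all were called. The median was 0.16 over the subunits and -0.02 over all, and without the 1st wild-type forebrain array the subunit median was -0.05.

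The subunit called was Atp5pb. It read 19391 and 17221 in wild-type and 14266 and 11007 in Pax6 homozygous forebrain, but 16747 and 15486 in wild-type and 18136 and 20910 in Pax6 homozygous hindbrain. The genotypes were apart in both regions and in opposite order. The interaction was -0.82 ± 0.24 (95% interval -1.36 to -0.27; limma adjusted p = 0.9995), made of -0.54 ± 0.17 in forebrain and 0.27 in hindbrain. Such opposite order was found for 2 of the 92 (2.17%), the other being the dim Cox5a, and for 2.45% of all tested probe sets. Next came Ndufv2 (0.72 ± 0.33), Ndufa9 (0.69 ± 0.38) and a probe set of the inhibitor Atp5if1 within or near noise (D13122_i_at, -2.96 ± 1.48). With 1 array left out at a time, the value of Ndufv2 ran from 0.40 without the 1st to 1.03 without the 2nd wild-type hindbrain array, and that of Ndufa9 from 0.37 to 1.01 without the same arrays. That of the Atp5if1 probe set ran from -4.13 without the 2nd to -1.78 without the 1st Pax6 homozygous forebrain array, and it was 0 with low values floored at the pooled median.

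Between the regions, 0 of 92 subunit probe sets differed in limma (smallest adjusted p = 0.277), where 1.51% of all tested did. At an unadjusted p below 0.05, 1 subunit was called (1.09%, against 8.09% of all), and no subunit had all 4 arrays of a region above or below all 4 of the other, against 2.28% of all with forebrain higher and 4.37% with hindbrain higher. The median log2 difference, forebrain minus hindbrain, was 0.07 over the subunits and -0.02 over all, and 69 of 92 (75%) were above 0, against 46.8% of all. Centring each array on its median raised the median of all tested to 0.09 and that of the subunits to 0.17, with 81 of 92 above 0; such centring shifts all probe sets of an array alike, so it cannot alter the gap between these medians. After quantile normalization the median was 0.05 over the subunits and 0.03 over all tested, with 28 of 92 subunits below 0. Without the 2nd wild-type forebrain array the subunit median was -0.01, lower than that of all tested at 0.03, with 52 of 92 below 0.

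Atp5pd had the smallest p. It read 17152 and 19231 in wild-type and 19592 and 16698 in Pax6 homozygous forebrain, and 14687 and 17183 in wild-type and 13429 and 10672 in Pax6 homozygous hindbrain. The wild-type hindbrain array at 17183 overlapped the forebrain range, and the lowest values came from Pax6 homozygous hindbrain. The difference was 0.39 ± 0.12 (95% interval 0.12 to 0.67; limma adjusted p = 0.277). Ndufc1, a small membrane-arm subunit, had 0.24 ± 0.10, Cox7b 0.20 ± 0.13, Uqcrfs1 0.18 ± 0.09, Ndufb5 0.16 ± 0.11 and Uqcr11 0.14 ± 0.17, all with forebrain higher and none past the test. Hindbrain was the higher side for Atp5pb (-0.23 ± 0.12), for Sdha (-0.11 ± 0.16) and for Cox8b, whose difference of -1.57 ± 0.79 came from values within noise on 7 arrays. Of the lists of other cells, muscle genes had 6 of 33 and neuronal genes 7 of 28 tested probe sets called lower in forebrain. Neural progenitor genes had 1 of 15 called lower and mesenchymal genes 1 of 26 called higher there. Over all tested probe sets 1.51% passed in either direction. Red blood cell genes were above 0 for 11 of 11, with 0 called. The part of these lists in the regional values was not tested.

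The 2 arrays of a group differed systematically for the subunits. The median log2 difference of the 2nd array from the 1st was 0.36 in wild-type forebrain, 0.13 in Pax6 homozygous forebrain, 0.13 in wild-type hindbrain and 0.20 in Pax6 homozygous hindbrain, while over all tested probe sets it was -0.19, -0.10, -0.11 and -0.06. The 2nd array was the higher one in all 4 groups for 37 of 92 subunit probe sets (40.2%), against 12.1% of all, and the lower one in all 4 for 3 (3.26%), against 26.1%. Cox4i2 and the Cox6a2 probe set X12554cds_s_at were among these 3. Among probe sets above noise on every array these shares of higher values were 41.5% of 82 subunits and 13.5% of 3743. The labels do not say what 1st and 2nd stand for.

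**Figure D4:**
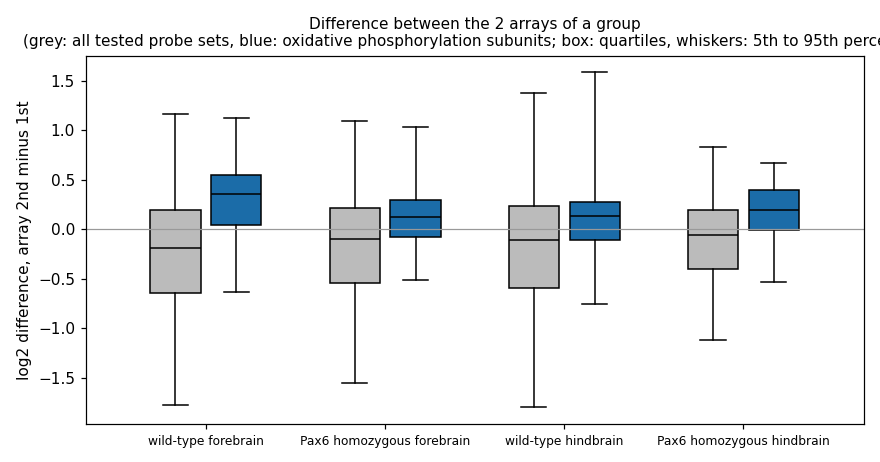
Log2 difference between the array labelled 2nd and the array labelled 1st within each group, for all 5881 tested probe sets (grey) and the 92 subunit probe sets (blue), with the median, the quartiles as a box and the 5th to 95th percentile as whiskers. The subunit medians are above 0 in all 4 groups, at 0.36, 0.13, 0.13 and 0.20, and the medians of all probe sets are below 0.

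Examples came from complexes I, III, IV and V. Cox6c (M27466_at), a small subunit of complex IV, read 350 and 2950 on the wild-type forebrain arrays and 874 and 2292 on the Pax6 homozygous ones. In hindbrain it read 172 and 2672 in wild-type and 1123 and 2129 in Pax6 homozygous tissue. The 2nd array was higher in each pair, by 0.92 to 3.95 on the log2 scale, and the genotypes overlapped in both regions. The 1st wild-type arrays, at 350 in forebrain and 172 in hindbrain, lay below their noise levels. The gene's other probe set, M27467_at, read 2010 and 1394 in Pax6 homozygous hindbrain, so its 2nd array was the lower one there. Uqcrc2 read 12036 and 20181, 11426 and 17567, 14023 and 18458, and 13801 and 16338 in the same order of groups, so its 2nd arrays were again the higher ones. Ndufc2, a complex I accessory subunit, had a mean difference of 0.60 and the Cox8a probe set rc_AI102505_at one of 0.54. In complex V both Atp5po probe sets had the higher 2nd array in every group, with mean differences of 0.48 and 0.25. Atp5f1b of the same complex did not, with 48525 and 43646 in wild-type forebrain.

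Compared only among arrays of the same label, the genotype difference in hindbrain kept its sign, with subunit medians of -0.13 among 1st arrays and -0.11 among 2nd arrays and 62 of 92 (67.4%) below 0 in each. Over all tested probe sets these medians were 0 and 0.07, with 49.8% and 41.7% below 0. In forebrain the medians were 0.07 and -0.16, with 33 and 70 of 92 below 0, so the pooled value joined arrays that disagreed, while 50.2% and 47.2% of all tested were below 0. Forebrain minus hindbrain gave -0.07 among wild-type 1st arrays, 0.15 among wild-type 2nd arrays, and 0.17 and 0.11 in Pax6 homozygous embryos. The ratio of the 5' to the 3' probe set, a sign of how complete the labelled copies were, lay between 0.591 and 0.811 for beta-actin, lowest on the 2nd wild-type forebrain array, and between 0.788 and 0.877 for GAPDH. Their part in the difference between the arrays was not tested.

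Probe sets for the same gene often disagreed at this size of difference. Of the 55 genes 28 had several probe sets, and 25 had more than 1 that entered the test. All tested probe sets of a gene had the same sign of genotype difference in 14 of these 25 genes in hindbrain and in 12 in forebrain, and the same sign between regions in 19. In hindbrain Cox4i1, Cox6b1, Cox8a, Cox7a2l, Uqcr11, Ndufb5, Ndufc1, Atp5f1d, Atp5f1e, Atp5pf and Atp5po were lower with all of their tested probe sets, and Cox6c, Ndufa6 and Ndufb6 were higher with both of theirs. The 4 probe sets of Atp5if1, the protein that inhibits ATP hydrolysis by complex V, ranged from -0.55 to 1.89 in hindbrain and from -1.07 to 1.01 in forebrain. The 3 of Ndufab1 ranged from -0.35 to 0.33 in hindbrain, those of Ndufs8 from -0.26 to 0.64, those of Ndufb8 from -0.16 to 0.10, those of Ndufaf3 from -0.30 to 0.06 and those of Cox6a1 from -0.27 to 0.04, where the dimmer probe sets held the values above 0 in Ndufab1, Ndufs8 and Ndufb11 (-0.08 and 1.55). Sdhaf2, which assembles complex II, had 0.03 in both regions.

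Other genes of mitochondrial energy metabolism were counted from lists chosen by function. None of the 5 lists had a member past the test in any comparison. In hindbrain, genes of the tricarboxylic acid cycle and of pyruvate dehydrogenase were above 0 for 15 of 20 tested probe sets (median 0.19), electron carriers outside the name rule for 5 of 8 (0.22), regulators of mitochondrial biogenesis for 4 of 4 (0.48), chaperones and proteases for 11 of 16 (0.07), and carriers and pores for 7 of 16 (-0.09), beside the subunit median of -0.13, where 54.3% of all tested probe sets were above 0. The median of the electron carriers does not describe their brightest member, Cyc1. It read 23008 and 17708 in wild-type and 12789 and 18240 in Pax6 homozygous hindbrain (-0.40). The summed signal of the electron carriers was 31998 to 34326 in wild-type and 26729 to 33618 in Pax6 homozygous hindbrain. The regulators' median rests in part on dim probe sets, with Polg2 above noise on 3 arrays and Sp1 and Esrra on 5 each. Ssbp1, the single-strand binding protein of mitochondrial DNA, was above it on all 8 and had 0.43 ± 0.35. Its genotypes overlapped in hindbrain, at 1740 and 2332 in wild-type and 2218 and 3331 in Pax6 homozygous tissue, and its forebrain difference was -0.31. In forebrain the medians were -0.06, -0.06, 0.19, 0.08 and 0.02 in the same order. Between regions they were -0.04, 0.18, -0.07, 0.18 and 0.08, forebrain minus hindbrain. The 55 subunit genes lie on 17 chromosomes, with 13 on chromosome 1.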

How the data were processed

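Per the labels, poly(A) RNA was copied from an oligo(dT) primer, and labelled cRNA was hybridised to 8 Affymetrix rat U34A arrays. The authors deposited 1 linear intensity per probe set and array; which software and scaling made it is not given in the sources used here. The mean of each array without its lowest and highest 2% was 2504 to 2505, so this scaling was kept. Gene names came from the platform annotation (7018 of 8799 probe sets with 1 symbol, 308 with several, left unnamed); the identifiers of all 101 subunit probe sets matched RefSeq.

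Intensities were floored at the pooled 25th percentile (45.9) and log2-transformed. Probe sets over the 40th percentile (255) on 2 or more arrays, 5881 without 59 array controls, were fitted in limma 3.58.1 (R 4.3.3) with a mean per group and an intensity trend (4 residual and 4.63 prior degrees of freedom). P-values were two-sided and Benjamini-Hochberg adjusted over all tested, with a threshold of 0.05; the steps were tested on simulated data. The errors beside log2 values are standard errors. Precision is limited by 2 arrays a group.

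Subunits, lists and comparisons were chosen with earlier results of these data known. Named with values are the brightest subunit of each complex, the 2 with the smallest p over both regions and between regions, the 4 with the smallest p in each other comparison, and genes with several probe sets or isoforms; others singled out were chosen after their values were seen. Alternatives covered the floor, filter, scaling, trend, arrays fitted, a replicate block and each array left out.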

Additional observations from a re-analysis of the deposited data

Results flagged for a closer look

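Atp5pb, the b subunit of the peripheral stalk of complex V, was flagged because its genotypes were apart in both regions in opposite order. Such order was found for 2 of the 92 tested subunit probe sets (2.17%), against 2.45% of all tested. The interaction of Atp5pb was -0.82 ± 0.24 (limma adjusted p = 0.9995), which did not pass, with all 8 arrays above noise.

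Cox5a, a subunit of complex IV, had the same opposite order. It read 512 and 436 in wild-type and 395 and 296 in Pax6 homozygous forebrain, against 290 and 352 and then 428 and 448 in hindbrain. Its interaction was -0.92 ± 0.68 (limma adjusted p = 0.9995), and only 5 arrays exceeded noise.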

How the results depend on the processing

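The count of subunits past the test was 0 in every comparison under the alternatives run, except without the filter on dim probe sets. There 1 was called in hindbrain (adjusted p = 0.00503), over both regions (0.0279), in the interaction (0.0293) and between regions (0.0104), each time the same Ndufa4l2 probe set, whose values ran from -167 to 157 and stayed below noise on all arrays. Leaving out each array in turn gave 0 each time. Medians then ranged from -0.23 to 0.14 in forebrain, -0.22 to -0.05 in hindbrain, -0.19 to -0.01 over both regions, -0.05 to 0.30 for the interaction and -0.01 to 0.18 between regions.

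With the replicate block (1st and 2nd), 0 subunits were called in each comparison. Arrays with the same label deviated together (correlations of 0.275 to 0.465), but the labels do not say that the numbers pair samples.

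Of 33 named values, 4 changed sign under some of 469 alternatives. The Ndufb8 value over both regions ranged from -0.21 to 0.017 when arrays were left out, and that of Cox8a from -0.21 to 0.13, with 0.071 after quantile normalization. Between regions Sdha ranged from -0.28 to 0.065, with 0.0017 after centring, and Uqcr11 from -0.0072 to 0.28. All 4 changed sign without the 2nd wild-type forebrain array, and Cox8a also without the 1st array of either Pax6 homozygous group. Quantile normalization also changed the sign for Cox8a, and centring that for Sdha. The cause was not tested. Detection calls were not used here, so dim subunits are limited by signal over background.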
